A study of Mus musculus with 12 samples.

Results

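The mitochondrial protein import machinery was followed across mouse hearts with and without PTCD1, a pentatricopeptide repeat protein that works on mitochondrial RNA. Its 36 genes were listed by name, with earlier results of these data known. All 36 were found among the 51911 features of the deposited gene tables, of which 51875 are nuclear. Total RNA of hearts was sequenced in 12 libraries that form 4 groups of 3: untreated hearts lacking PTCD1 (knockout, KO), untreated wild-type hearts (WT), and KO and WT again after CMC, a carbodiimide that marks pseudouridine and was applied to RNA already taken from the heart. All 12 libraries share the removal of cytoplasmic ribosomal RNA. The sources used here do not say how the gene was knocked out, in which heart cells, of what strain and age the mice were, or whether replicates are separate hearts, so each p-value measures the spread between these libraries, which may be technical.

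Nearly all mitochondrial proteins are made in the cytosol and are carried through the outer membrane by the TOM complex, a pore with receptors for targeting signals. From there the routes divide: the SAM complex builds barrel proteins into the outer membrane, small TIM chaperones guide membrane proteins across the intermembrane space, the TIM22 complex inserts carriers, and the TIM23 complex with its Hsp70 motor pulls presequence proteins into the matrix, where peptidases remove the presequence. A disulfide relay folds small cysteine proteins in the intermembrane space, the small TIM chaperones among them. Heart muscle is dense with mitochondria and so depends heavily on these routes.

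Library depth was 10389398 to 12462093 counts, of which 2683284 to 3187748 fell on nuclear genes and 5067 to 6880 on the import genes. Levels are given as CPM, the count of a gene per 1000000 nuclear counts after TMM scaling. Ptcd1 itself had 28, 17 and 19 counts in untreated KO libraries, against 78, 71 and 74 counts in untreated WT libraries (log2 fold change -1.94, SE 0.19, adjusted p = 1.5e-19, edgeR quasi-likelihood test). After CMC it had 23, 21 and 20 counts in KO, against 79, 103 and 74 counts in WT, and every KO library was below every WT library. All 10 cardiomyocyte markers were detected in every group, and their summed level was 125124 to 125624 CPM in KO and 202729 to 206628 CPM in WT untreated libraries, with 9 of 10 lower and 1 higher in KO. Smooth muscle and pericyte markers summed to 1525 to 1552 CPM in KO and 1881 to 1971 CPM in WT. Macrophage markers summed to 321 to 342 CPM in KO and 304 to 308 CPM in WT, fibroblast markers to 1707 to 1725 CPM in KO and 1799 to 1876 CPM in WT, and endothelial markers to 1072 to 1123 CPM in KO and 1127 to 1206 CPM in WT. Adipocyte markers summed to 35.1 to 40.8 CPM in KO and 64.4 to 76.8 CPM in WT, and red blood cell markers to 400.0 to 421 CPM in KO and 456 to 648 CPM in WT. Liver markers were at or near 0 and skeletal muscle markers summed to at most 8.25 CPM in any library. The part of these shifts in the results below was not tested, and in whole hearts fewer cells of a type and less RNA per cell cannot be told apart. WT replicate 3 after CMC stood apart from the other 2 libraries of its group, with a chi-square of 2.08 and 2.43 per degree of freedom against them, where these 2 differed by 1.39.

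In untreated hearts most import genes were more abundant in KO than in WT. The higher genes came from every complex but TIM22, for which Timm22 alone was listed. Of 35 import genes tested, 19 were higher in KO, 5 were lower and 11 did not pass the test, which is edgeR's quasi-likelihood test with Benjamini-Hochberg adjustment over 12195 nuclear genes and a threshold of 0.05. The background is wide: 57.8% of all nuclear genes tested were called, 29.1% higher and 28.7% lower, against 54.3% higher and 14.3% lower among the import genes. The median log2 fold change was 0.29 over the import genes and -0.0035 over all genes tested. Their summed level was 2118, 2190.2 and 2136 CPM in the KO libraries, against 1805, 1785 and 1823 CPM in the WT libraries. The 3 KO sums all lay above the 3 WT sums. KO and WT libraries did not overlap for 24 of the 35 genes, where 61.3% of all genes tested did not overlap. With a fold of at least 1.5 besides, 9 of the 35 were higher and 2 lower. Together that is no larger a share than the 34% of all genes tested in either direction. Tomm6 was too low to test. Timm8a1, among the 9, passed the filter on low counts through its KO libraries, so its call is not independent of that filter. Without Timm8a1, 18 of 34 were higher and the median log2 fold change was 0.24.

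**Figure D1:**
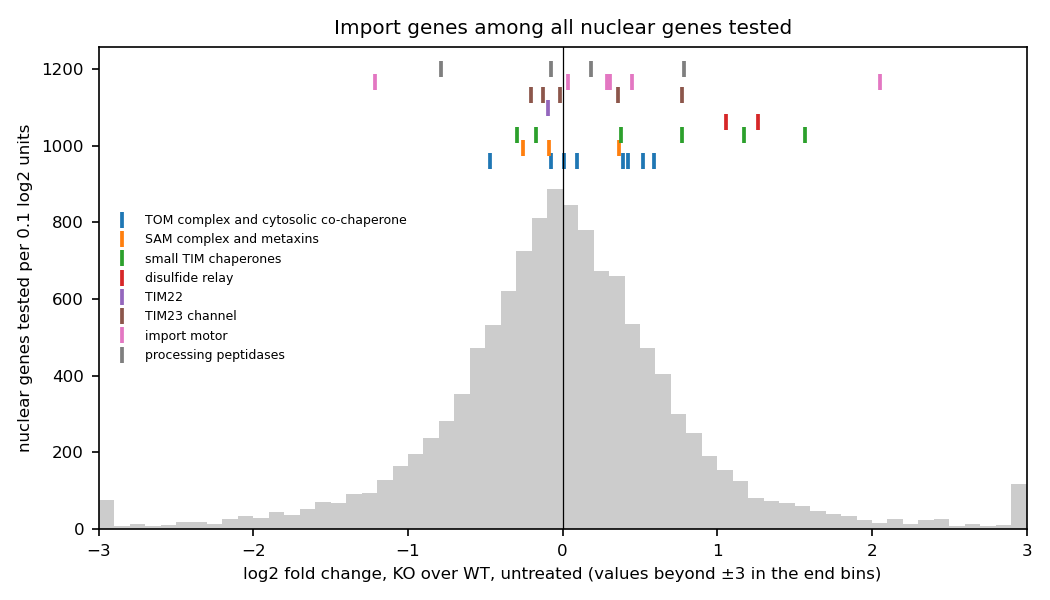
Histogram of the log2 fold change of KO over WT in untreated libraries for all 12195 nuclear genes tested (x axis, values beyond the ends of the axis in the end bins; y axis, genes per 0.1 log2 units), with 1 tick per import gene above it, coloured by complex. The ticks run from -1.21 to 2.05 with a median of 0.29 (0.24 without Timm8a1), while the histogram centres on 0.

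**Figure D2:**
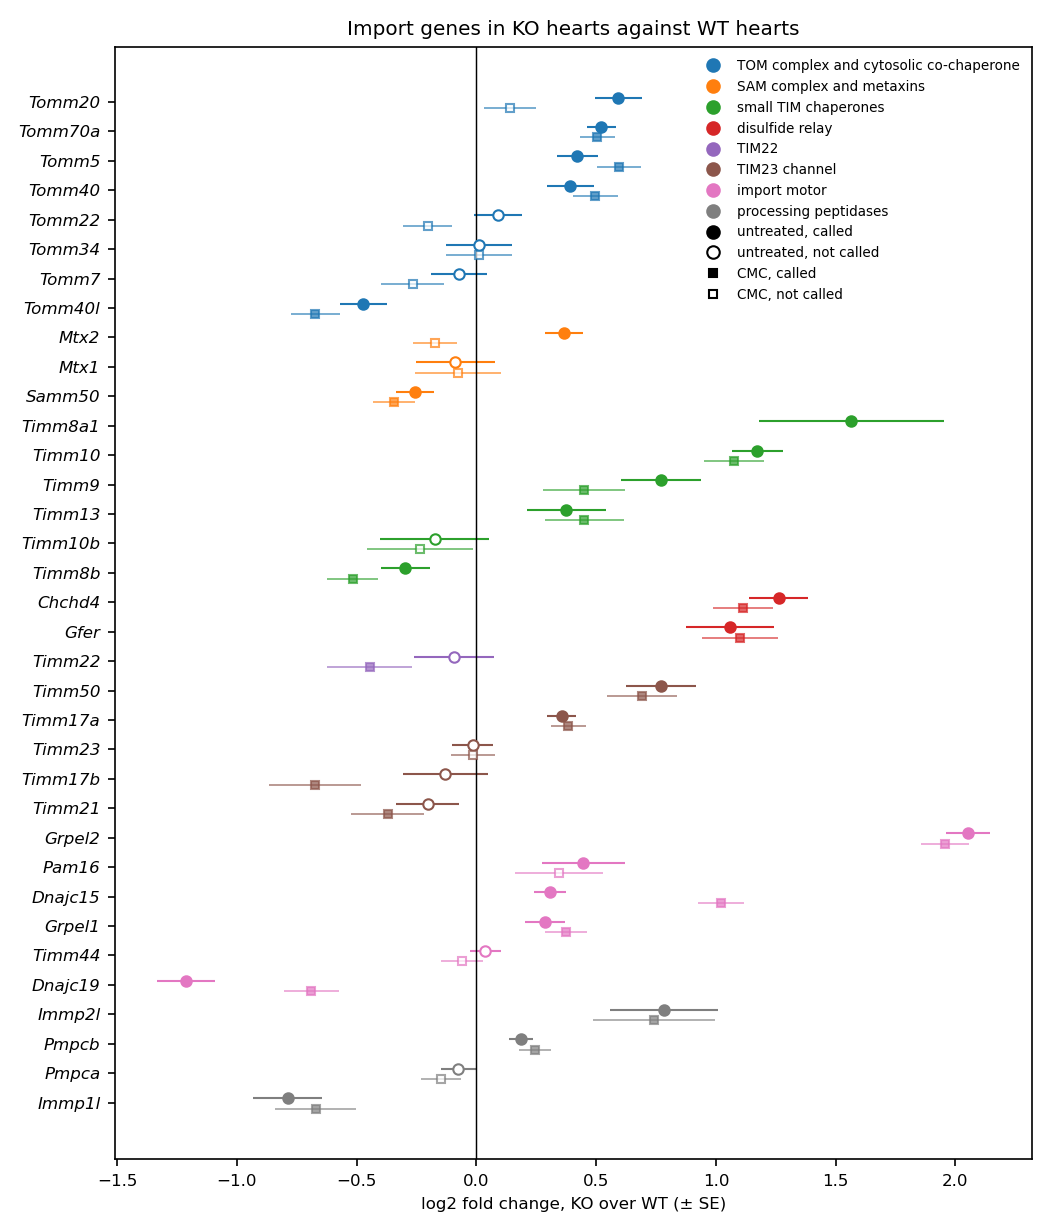
Log2 fold change of KO over WT with its SE (x axis) for each import gene, grouped by complex; circles are untreated libraries, squares are CMC libraries, and filled symbols passed the test. Grpel2 stands farthest to the right in both, and Dnajc19 farthest to the left.

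At the outer membrane, the receptor genes Tomm20 and Tomm70a and the pore gene Tomm40 were higher in KO, while Tomm40l was lower. Of 8 genes tested, 4 were higher, 1 was lower and 3 did not pass. Tomm20, the receptor for presequences, had 58.8, 70.3 and 67.4 CPM in KO, against 44.1, 40.2 and 46.1 CPM in WT (log2 fold change 0.59, SE 0.10, adjusted p = 1.4e-08). Tomm70a, the receptor for carriers and other proteins with inner signals, had 176, 179 and 179 CPM in KO, against 116, 124 and 132 CPM in WT (log2 fold change 0.52, SE 0.06, adjusted p = 8.6e-15). For both genes every KO library lay above every WT library. Tomm5, a small subunit of the pore, had 80.98, 81.2 and 75.04 CPM in KO, against 60.7, 56.4 and 60.3 CPM in WT, with a log2 fold change of 0.42 (SE 0.08, adjusted p = 4.2e-06). Tomm40, the pore itself, had 54.8, 60.04 and 60.1 CPM in KO and 42.7, 46.9 and 44.00 CPM in WT (log2 fold change 0.39, SE 0.10, adjusted p = 0.00024). The opposite direction held for Tomm40l, a second gene for a pore-type protein, which had 42.8, 43.7 and 42.6 CPM in KO and 63.5, 51.8 and 64.1 CPM in WT (log2 fold change -0.47, SE 0.10, adjusted p = 9.6e-06). Its 3 KO values were close together and all below WT. Of its exonic bases, 64.3% are shared with Nr1i3 on the opposite strand, which had 0 counts in either untreated group. Tomm22, the central receptor, Tomm34, a cytosolic co-chaperone, and Tomm7, another small subunit, had log2 fold changes of 0.09, 0.01 and -0.07 and did not pass. Tomm6 had 0, 0 and 1 counts in KO and 2, 1 and 2 counts in WT, too few to compare, and 84.2% of its exonic bases are shared with 3 other genes.

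The stretches upstream of the start of Tomm20 and Tomm70a are shown because each holds a motif tied to mitochondrial genes, written in capitals: in Tomm20 the motif of NRF1, GCGC and TGCGC with any base between them, and in Tomm70a that of ETS factors such as GABP, CCGGAAGT. NRF1 and GABP are transcription factors known to act on many nuclear genes for mitochondria. The sequences are RefSeq's on GRCm38.p6, 5′ to 3′ on the strand of the gene, 250 bases before the start less any base in an annotated exon. The Tomm20 stretch lies at chr8:126945922-126946171 on the minus strand and the Tomm70a stretch at chr16:57121464-57121702 on the plus strand.
Tomm20: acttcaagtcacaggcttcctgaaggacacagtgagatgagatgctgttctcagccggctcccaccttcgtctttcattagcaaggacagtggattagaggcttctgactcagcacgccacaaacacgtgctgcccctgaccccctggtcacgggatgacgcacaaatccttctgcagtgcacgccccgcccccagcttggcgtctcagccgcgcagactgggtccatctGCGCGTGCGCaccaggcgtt
Tomm70a: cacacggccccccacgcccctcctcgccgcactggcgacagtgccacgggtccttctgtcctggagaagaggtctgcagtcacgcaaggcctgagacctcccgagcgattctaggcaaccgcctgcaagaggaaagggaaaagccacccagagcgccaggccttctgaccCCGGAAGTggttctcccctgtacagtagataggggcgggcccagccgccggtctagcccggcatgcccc

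The outer membrane assembly genes moved in opposite directions: of 3 tested, Mtx2 was higher, Samm50 was lower and Mtx1 did not pass. Mtx2, a metaxin that works with the SAM complex, had 85.9, 92.8 and 93.2 CPM in KO and 77.02, 68.00 and 66.2 CPM in WT (log2 fold change 0.37, SE 0.08, adjusted p = 2.1e-05), and all KO libraries were above WT. Samm50, which inserts barrel proteins, had 69.6, 92.2 and 74.4 CPM in KO and 87.1, 93.4 and 102 CPM in WT (log2 fold change -0.26, SE 0.08, adjusted p = 0.0026). These groups overlapped, since KO replicate 2 was above WT replicate 1, and without KO replicate 1 the adjusted p of Samm50 was 0.082. Mtx1 had 19.1, 16.1 and 17.5 CPM in KO and 18.04, 17.97 and 20.1 CPM in WT (log2 fold change -0.09).

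In the intermembrane space, both genes of the disulfide relay were more than doubled in KO, and the chaperones Timm9 and Timm10 were higher with them. Of 6 small TIM genes tested, 4 were higher, 1 was lower and 1 did not pass. Without Timm8a1, whose call is not independent of the filter on low counts, 3 of 5 were higher. Of the relay, 2 of 2 were higher. Chchd4, the oxidoreductase also called MIA40 that places disulfide bonds in incoming proteins, lies on mm10 at chr6:91462172-91473546 and had 42.8, 52.98 and 55.6 CPM in KO, against 22.6, 19.4 and 21.1 CPM in WT, a fold of 2.40 (log2 fold change 1.26, SE 0.12, adjusted p = 8.8e-20). Gfer, the sulfhydryl oxidase that recharges Chchd4, had 21.2, 20.5 and 20.7 CPM in KO, against 9.71, 10.2 and 10.05 CPM in WT, a fold of 2.08 (log2 fold change 1.06, SE 0.18, adjusted p = 9.7e-08). The lowest KO library lay far above the highest WT library for each. Timm10, which forms the carrier chaperone with Timm9, lies on mm10 at chr2:84826997-84830213 and had 72.05, 66.1 and 62.6 CPM in KO and 26.4, 28.2 and 34.6 CPM in WT (log2 fold change 1.17, SE 0.11, adjusted p = 1.3e-22). Timm9 had 28.02, 23.4 and 19.1 CPM in KO and 17.00, 10.6 and 13.9 CPM in WT (log2 fold change 0.77, SE 0.17, adjusted p = 2.1e-05). Both partners were higher in every KO library than in any WT library, Timm10 by the larger fold. Timm8a1 was rare, with 16, 15 and 22 counts in KO and 10, 3 and 3 counts in WT (log2 fold change 1.57, SE 0.39, adjusted p = 0.00018). Its close relative Timm8b, far more abundant, had 43.4, 48.2 and 37.8 CPM in KO and 51.7, 56.02 and 51.6 CPM in WT (log2 fold change -0.30, SE 0.10, adjusted p = 0.0079). Timm8b was lower in every KO library, yet without KO replicate 3 its adjusted p was 0.106. Timm13, the partner of the Timm8 proteins, had a log2 fold change of 0.38 (adjusted p = 0.039), which missed the threshold without any of KO replicates 1 and 2 and WT replicates 1 and 2 (adjusted p 0.087, 0.096, 0.131 and 0.073). Timm10b, a small TIM bound to the TIM22 complex, and Timm22, the carrier insertase itself, had log2 fold changes of -0.17 and -0.10 and did not pass.

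The stretch upstream of Chchd4 (chr6:91473547-91473673, minus strand, GRCm38.p6) is shown because this gene had the largest increase among those with the NRF1 motif, in capitals. The start of the neighbouring gene Tmem43 lies 157 bases away on the other strand.
Chchd4: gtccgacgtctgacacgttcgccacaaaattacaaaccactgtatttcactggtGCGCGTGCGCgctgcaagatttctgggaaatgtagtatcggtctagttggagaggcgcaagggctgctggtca

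At the inner membrane, the presequence receptor Timm50 and the channel gene Timm17a were higher in KO, and the channel core Timm23 did not pass. Of 5 TIM23 channel genes, 2 were higher, none was lower and 3 did not pass. Timm50 had 32.3, 30.5 and 27.3 CPM in KO, against 18.4, 19.4 and 15.2 CPM in WT (log2 fold change 0.77, SE 0.15, adjusted p = 1e-06). Timm17a had 173, 169.9 and 158 CPM in KO and 125, 139.5 and 127 CPM in WT (log2 fold change 0.36, SE 0.06, adjusted p = 7.8e-08). No KO library of either gene overlapped WT. Timm23 had 65.9, 64.5 and 69.6 CPM in KO and 65.9, 64.5 and 72.1 CPM in WT, with a log2 fold change of -0.01 and a 95% interval of -0.18 to 0.15. Timm17b, the other form of the Timm17 subunit, had 14.5, 13.8 and 15.9 CPM in KO and 17.3, 15.5 and 15.6 CPM in WT (log2 fold change -0.13, adjusted p = 0.550). Timm21, which links the channel to TOM and to the respiratory chain, had a log2 fold change of -0.20 (adjusted p = 0.179).

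The widest spread lay in the import motor, where the exchange factor gene Grpel2 was about 4 times as abundant in KO and the J-protein gene Dnajc19 was less than 0.5 times as abundant. Of 6 motor genes, 4 were higher, 1 was lower and Timm44, which tethers Hsp70 to the channel, did not pass (log2 fold change 0.04). Grpel2, a nucleotide exchange factor for mitochondrial Hsp70, had 113, 118 and 111 CPM in KO, against 28.4, 27.8 and 26.3 CPM in WT, a fold of 4.15 (log2 fold change 2.05, SE 0.09, adjusted p = 2.1e-59). Grpel1, the other exchange factor, had 80.7, 71.6 and 80.8 CPM in KO and 60.4, 65.9 and 65.1 CPM in WT (log2 fold change 0.29, SE 0.08, adjusted p = 0.0017). Both were higher in every KO library, but the difference for Grpel2 was many times that for Grpel1. Dnajc19, a J-protein that stimulates Hsp70 at the channel and whose human gene is mutated in a dilated cardiomyopathy, lies on mm10 at chr3:34056020-34081321 and had 24.6, 22.8 and 18.4 CPM in KO, against 60.02, 41.9 and 51.3 CPM in WT, a fold of 0.431 (log2 fold change -1.21, SE 0.12, adjusted p = 7e-19). Dnajc15, a related J-protein, had 120.1, 136 and 136 CPM in KO and 99.2, 113 and 106 CPM in WT (log2 fold change 0.31, SE 0.07, adjusted p = 2.8e-05). The 2 J-protein genes thus changed in opposite directions, and neither overlapped between genotypes. Pam16, a J-like partner that restrains Dnajc19, had 20.01, 21.2 and 17.2 CPM in KO and 15.6, 14.1 and 13.2 CPM in WT (log2 fold change 0.45, SE 0.17, adjusted p = 0.019), and missed the threshold without KO replicate 2 or WT replicate 3 (adjusted p 0.078 and 0.077).

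The stretch upstream of Dnajc19 (chr3:34081355-34081604, minus strand, GRCm38.p6), the import gene with the largest decrease, is shown for comparison and has no capitals, since none of the 4 motifs searched was in its window. Dnajc19 shares 4.42% of its exonic bases with Fxr1 on the opposite strand. Summed over libraries, its copy Dnajc19-ps had 37 counts in KO and 65 counts in WT.
Dnajc19: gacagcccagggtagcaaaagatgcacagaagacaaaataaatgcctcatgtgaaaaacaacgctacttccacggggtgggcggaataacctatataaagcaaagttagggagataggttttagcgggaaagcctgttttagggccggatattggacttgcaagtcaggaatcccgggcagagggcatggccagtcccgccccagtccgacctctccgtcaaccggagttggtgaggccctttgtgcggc

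Among the processing peptidases, the inner membrane pair moved apart. Of 4 tested, 2 were higher, 1 was lower and 1 did not pass. Immp2l, a subunit of the inner membrane peptidase, had 11.7, 14.1 and 11.4 CPM in KO and 6.94, 8.46 and 6.24 CPM in WT (log2 fold change 0.78, SE 0.23, adjusted p = 0.0015). Immp1l, its partner, had 19.1, 22.2 and 13.4 CPM in KO and 29.8, 35.9 and 28.8 CPM in WT (log2 fold change -0.79, SE 0.14, adjusted p = 4.4e-07). Neither overlapped between genotypes, in opposite directions; summed over libraries, Gm8121, a copy of Immp1l, had 20 counts in KO and 54 counts in WT. Pmpcb, the catalytic subunit of the matrix processing peptidase, had 232, 255 and 262 CPM in KO and 223, 214 and 223 CPM in WT (log2 fold change 0.18, SE 0.05, adjusted p = 0.00079), with every KO library above every WT library. Pmpca, its partner, had 106, 87.98 and 93.5 CPM in KO and 104, 94.8 and 105 CPM in WT (log2 fold change -0.08) and did not pass.

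**Figure D3:**
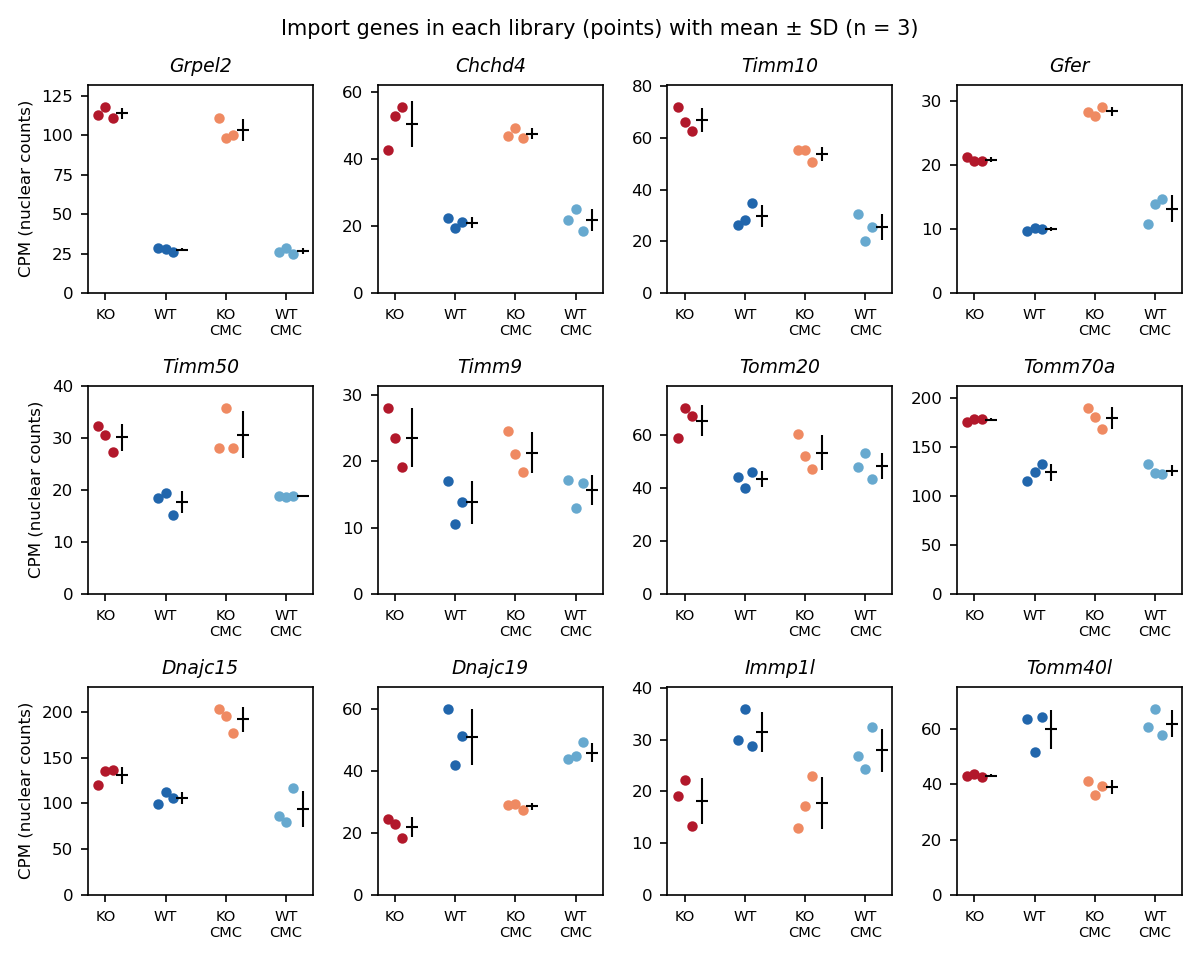
CPM over nuclear counts (y axis, from 0) of 12 import genes in every library (points) with the mean and SD of 3 libraries beside them; KO and WT untreated stand left of KO and WT after CMC. The 12 genes are separated by genotype in the untreated libraries, 9 with KO above WT and 3 with KO below.

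Levels of different genes were compared per kilobase of the deposited exon length, scaled to a fixed total within each library, which serves for the order of genes within a group. On this scale Dnajc15 stood first in both genotypes, with 644 ± 44.8 in KO and 485 ± 29.7 in WT (mean ± SD, n = 3). Timm8b and Tomm5 held the next ranks, with 266 ± 31.6 and 291 ± 12.8 in KO, which did not differ beyond their spread, and 304 ± 14.7 and 202 ± 8.40 in WT. In WT the receptor Tomm70a (97.5 ± 5.92), Timm44 (96.5 ± 7.80) and Tomm7 (95.4 ± 11.9) were neighbours within their spread. Grpel2 took rank 12 of 36 in KO (90.4 ± 2.70) and rank 25 in WT (20.3 ± 0.943), and Timm10 rank 4 in KO and rank 8 in WT. In KO, Timm10 (262 ± 18.9) did not differ from Timm8b beyond the spread. In WT, Timm10 lay within the spread of its neighbours Timm23 and Immp1l. Dnajc19 took rank 31 in KO and rank 19 in WT, and Immp1l rank 19 in KO and rank 9 in WT. Tomm6, Timm8a1 and Timm10b held the last 3 ranks in both. Across the 35 genes tested, Spearman's rho of the log2 fold change was -0.317 with the WT per-length level and 0.0983 with exon length; genes are not independent replicates, and the fold change and the WT level share the WT libraries.

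**Figure D4:**
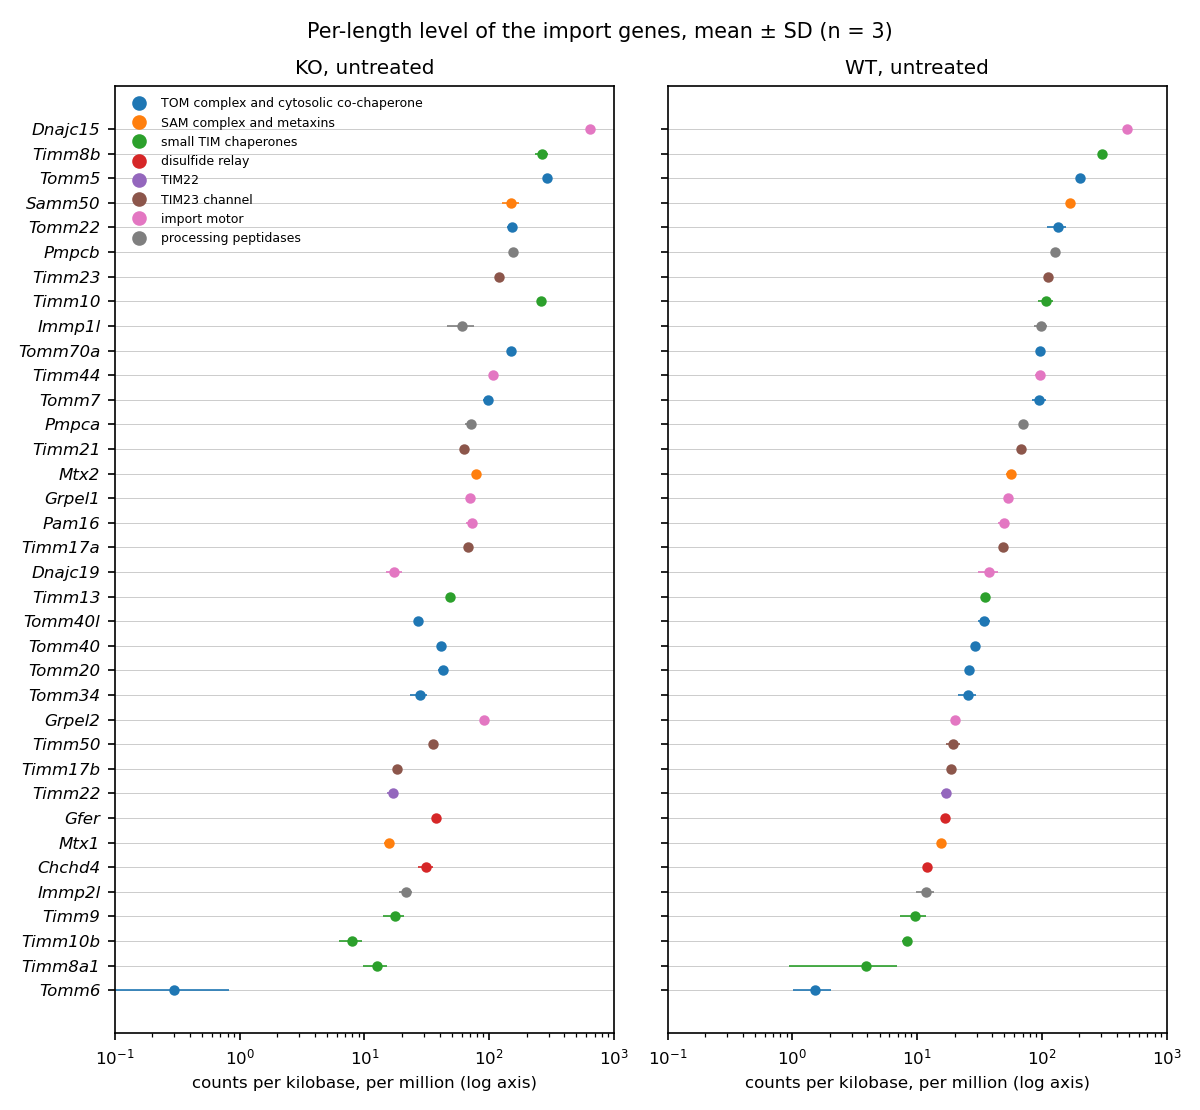
Per-length level of each import gene (x axis, log scale; mean and SD of 3 libraries) in untreated KO libraries on the left and untreated WT libraries on the right, with genes ordered by the WT level and coloured by complex. The WT panel falls smoothly by construction, and Grpel2, Timm10, Dnajc19 and Immp1l step out of that order in the KO panel; the lower error bar of Tomm6 in KO reaches below 0 and is cut by the axis.

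Several import factors come as pairs of related genes or partner subunits. In 5 of 7 pairs, Timm8a1 and Timm8b apart, the mean log2 ratio differed by over 0.4 between KO and WT. This held in both untreated and CMC libraries, in the same direction, and these sets may come from the same RNA. Mtx1 to Mtx2 passed that limit in untreated libraries only (-0.46). The limit of 0.4 was not a planned setting, and Pmpca to Pmpcb fell short of it, at -0.26 untreated and -0.39 after CMC. Changes of this size were common among single genes. The quartiles of the log2 fold change over all genes tested in untreated libraries were -0.41 and 0.41. A ratio combines the changes of both its genes, so these quartiles are of another measure. Other gene pairs were not examined. Ratios are of counts per kilobase within a library, so scaling between libraries plays no part. The ratio of Grpel2 to Grpel1 was 1.23, 1.44 and 1.21 in KO libraries, against 0.413, 0.370 and 0.354 in WT libraries, so Grpel2 was the more abundant of the exchange factors in KO and the less abundant in WT. Tomm40l to Tomm40 was 0.686, 0.639 and 0.623 in KO and 1.31, 0.971 and 1.28 in WT. On this scale Tomm40 led in every KO library. Of the exonic bases of Tomm40l, 64.3% are shared with Nr1i3 on the opposite strand. Whether counting used the strand is not stated, so which gene led is uncertain. Timm17a to Timm17b was 3.87, 3.99 and 3.21 in KO and 2.33, 2.92 and 2.65 in WT. Timm17a led in both genotypes, by more in KO. Dnajc15 to Dnajc19 was 30.3, 37.02 and 45.97 in KO and 10.3, 16.7 and 12.8 in WT. Immp2l to Immp1l was 0.319, 0.332 and 0.447 in KO and 0.121, 0.123 and 0.113 in WT. Timm8a1 to Timm8b averaged 0.0484 in KO and 0.0129 in WT, with few counts of Timm8a1 behind it, and is not counted among the 5. For these pairs and for Mtx1 to Mtx2 (0.199 in KO and 0.274 in WT on average) the genotypes did not overlap, and a two-sided exact permutation test gave p = 0.10, the smallest that 3 against 3 libraries allow (0.114 adjusted over the 8 pairs). Pmpca to Pmpcb averaged 0.463 in KO and 0.552 in WT (exact p = 0.2). After CMC the log2 ratio of Mtx1 to Mtx2 differed by 0.14 between KO and WT (exact p = 0.7), and the groups overlapped, against -0.46 in untreated libraries.

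**Figure D5:**
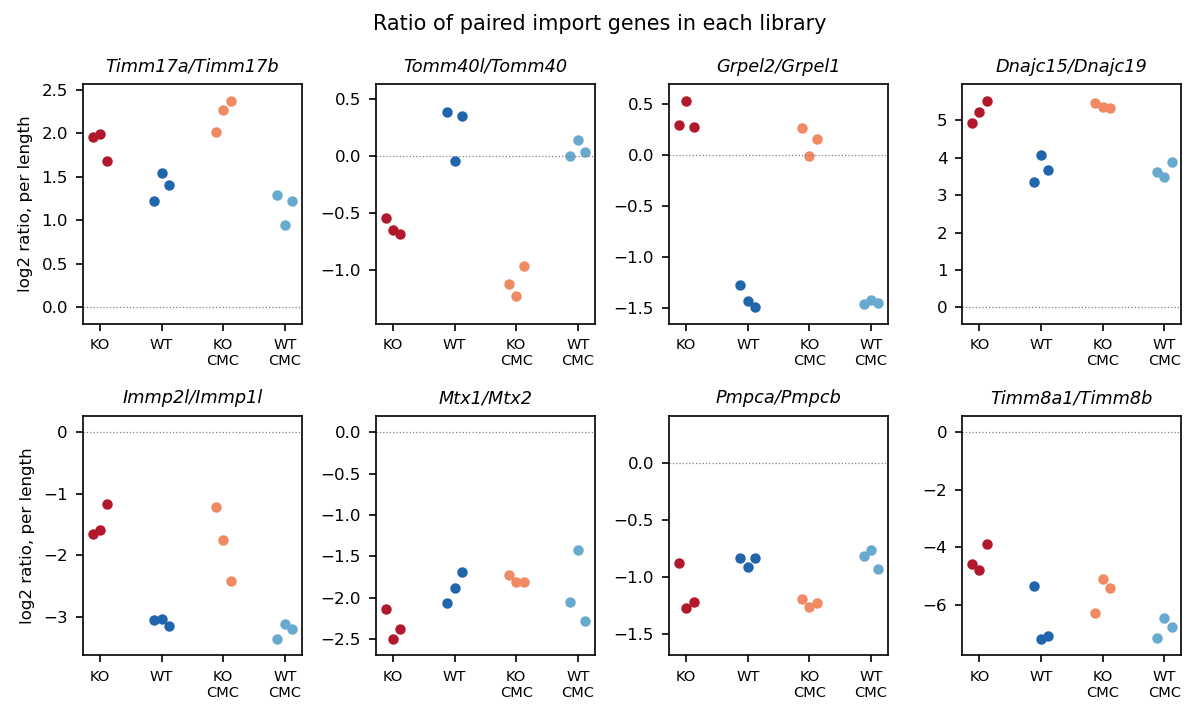
Log2 ratio of counts per kilobase of the first to the second gene of each pair (y axis; 0, dotted, is equal abundance) in every library of the 4 groups, KO left of WT. Grpel2/Grpel1 lies above the dotted line in untreated KO and below it in untreated WT, and KO and WT of Mtx1/Mtx2 are apart in untreated libraries and overlap after CMC.

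After CMC the same comparison of genotypes gave 15 import genes higher in KO, 8 lower and 11 not past the test, of 34 tested. Over all nuclear genes 54% were called, 27.2% higher and 26.8% lower, and KO and WT did not overlap for 26 of the 34, against 58.8% of all genes. The median log2 fold change was 0.08 over the import genes and -0.0079 over all genes tested. Their summed level was 2172, 2124 and 2020.2 CPM in KO, against 1765, 1761 and 1777 CPM in WT. All 15 had been called higher and 5 of the 8 had been called lower in untreated libraries, and no gene was called in opposite directions. Without WT replicate 3, 14 were higher and 8 lower, Timm13 being lost (adjusted p = 0.097). Grpel2 had 111, 98.1 and 100.4 CPM in KO and 25.9, 28.5 and 24.98 CPM in WT after CMC (log2 fold change 1.96). Chchd4, Timm10 and Gfer had log2 fold changes of 1.11, 1.07 and 1.10. These 4 genes had at least a 2-fold difference in both sets of libraries, and how many of all genes did so was not counted. With single CMC libraries left out, the lowest log2 fold change was 0.93 for Timm10 and 0.98 for Gfer. It was 1.90 for Grpel2 and 1.02 for Chchd4. Untreated and CMC libraries of the same number may come from the same RNA, so the CMC set may not be an independent repeat. Those called lower only after CMC were the insertase Timm22 (-0.45, adjusted p = 0.035), Timm17b (-0.67, 0.0036) and Timm21 (-0.37, 0.041), all of the inner membrane, and for none of them did the test of the difference between the genotype effects pass (adjusted p 0.589, 0.369 and 0.809). Timm22 missed the threshold with DESeq2 (adjusted p = 0.147) and without KO replicate 1 or 2 or WT replicate 1 or 2 (0.050 to 0.195), and Timm21 with DESeq2 (0.170) and without KO replicate 1 or 3 or WT replicate 1 or 2 (0.085 to 0.157). Of the genes higher after CMC, Timm9 missed it without KO replicate 1 (0.160) or WT replicate 2 (0.135), and Immp2l without KO replicate 1 (0.069) or WT replicate 1 (0.056). Tomm20 had 60.4, 52.2 and 47.3 CPM in KO and 48.1, 53.2 and 43.5 CPM in WT after CMC and did not pass (log2 fold change 0.14).

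The genotype effect itself differed with CMC for Dnajc15 and Mtx2 among the 35 import genes tested, where 1.47% of all genes tested were called, 1.08% higher and 0.391% lower. Dnajc15 had 203, 195 and 177 CPM in KO and 86.4, 79.9 and 117 CPM in WT after CMC, a log2 fold change of 1.02, against 0.31 in untreated libraries. The difference of these effects was 0.72 (SE 0.12, adjusted p = 0.00012), and 0.90 without WT replicate 3 after CMC, the highest library of its group. Mtx2 had 62.6, 61.7 and 66.7 CPM in KO and 77.3, 67.2 and 69.8 CPM in WT after CMC, with a log2 fold change of -0.17 that did not pass. The difference of effects was -0.53 (SE 0.13, adjusted p = 0.014) and missed the threshold, with an adjusted p of 0.050 to 0.064, when KO replicate 3, WT replicate 2 or WT replicate 3 of the untreated or KO replicate 2 or WT replicate 1 of the CMC libraries was left out. Without WT replicate 3 after CMC, Tomm20 (-0.51, adjusted p = 0.030) and Dnajc19 (0.59, adjusted p = 0.041) passed as well.

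CMC against untreated libraries, which asks what the chemistry does to the measured levels, moved 9 of 35 import genes in KO, 3 higher and 6 lower, where 12.1% of all genes tested were called, 6.77% higher and 5.36% lower. Dnajc15, Gfer and Tomm40 were higher after CMC, with log2 fold changes of 0.55, 0.44 and 0.34. Lower after CMC were Timm8a1 (-1.21), Mtx2 (-0.52), Tomm7 (-0.47), Timm21 (-0.45), Timm10 (-0.32) and Tomm20 (-0.30). Timm8a1 passed the filter on low counts through its untreated libraries, so its call is not independent of that filter. Without Timm8a1, 5 were lower. With DESeq2, 1 was higher (Dnajc15) and 1 lower (Mtx2): Tomm40 (adjusted p = 0.057), Tomm7 (0.074), Timm10 (0.093) and Tomm20 (0.151) missed the threshold, and Gfer, Timm21 and Timm8a1 were given no adjusted p. Dropping single libraries left 2 to 3 higher and 3 to 5 lower, with 3 lower when KO replicate 1 or 3 of the untreated or KO replicate 3 of the CMC libraries was left out. In WT, 0 of 34 passed edgeR's test and 0 of the 19 given an adjusted p passed DESeq2's, 4 had an unadjusted p under 0.05, and 2.23% of all genes tested were called, 0.967% higher and 1.26% lower. CMC and untreated libraries did not overlap for 14 of 35 import genes in KO and 6 of 34 in WT, against 27% and 19% of all genes. Without WT replicate 3 after CMC, Tomm5 (-0.34, adjusted p = 0.032) and Dnajc15 (-0.35, adjusted p = 0.0054) were lower. The comparisons of this paragraph share their libraries with the genotype comparisons.

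Around the 36 genes, 29 others of the import route were taken from a list, 27 of which could be tested, and Hsp90aa1 had the largest difference. Untreated, 14 were higher in KO, 8 were lower and 5 did not pass, so that 81.5% were called against 57.8% of all genes, with a median log2 fold change of 0.16; after CMC, 11 were higher, 5 were lower and 11 did not pass, so that 59.3% were called against 54% of all genes. Hsp90aa1, a cytosolic chaperone that hands precursors to Tomm70a, had 805, 849 and 843 CPM in KO, against 135, 136 and 126 CPM in WT (log2 fold change 2.65, SE 0.05, adjusted p = 6.2e-149). Hspa8, the constitutive cytosolic Hsp70, had 3150.1, 3384 and 3198 CPM in KO and 1529, 1478 and 1444 CPM in WT (log2 fold change 1.13). Both stood above WT in every KO library. Chchd6, a subunit of the MICOS complex that shapes cristae, had 9.85, 9.31 and 8.27 CPM in KO and 3.47, 3.52 and 2.43 CPM in WT (log2 fold change 1.53, SE 0.30, adjusted p = 2.1e-06). These are few counts, 32, 29 and 26 in KO and 10, 10 and 7 in WT. Chchd6 passed the filter on low counts only through its KO libraries, so its call, 1 of the 14, is not independent of that filter. Among those lower in KO, Timm29, a partner of Timm22, had 24.3, 26.97 and 21.9 CPM in KO and 44.4, 42.6 and 36.4 CPM in WT (log2 fold change -0.75, SE 0.12, adjusted p = 2.4e-08). Apool, a MICOS subunit, had 38.8, 35.3 and 34.02 CPM in KO and 59.3, 54.3 and 47.8 CPM in WT (log2 fold change -0.57). Minos1, another, had 39.4, 47.8 and 42.3 CPM in KO and 56.9, 66.9 and 57.9 CPM in WT (log2 fold change -0.49). For Timm29, Apool and Minos1 every KO library was below every WT library. Agk, taken with Timm29 as a partner of TIM22, TIM23 or small TIM proteins, was higher in KO (log2 fold change 0.37, SE 0.15, adjusted p = 0.023, edgeR). Romo1, taken likewise, did not pass. Hspa9, the motor Hsp70 that Grpel1, Grpel2, Dnajc15 and Dnajc19 serve, belongs to the list but not to the genes picked for per-library values, so it is shown here after its value was seen: it had 1923, 1968 and 1970.4 CPM in KO and 942, 959 and 938 CPM in WT (log2 fold change 1.05).

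How reads are shared with neighbours and copies bears on some of these values. On GENCODE M21, 16 of the 36 genes overlap exons of another gene, 11 share at least 100 bases at 95% identity or more with a pseudogene transcript, and 12 have neither. All 5 genes lower in KO in untreated libraries and 11 of the 19 higher ones are among the 24 with either. Among the 12 with neither, 8 were higher, 0 lower and 4 not past edgeR's test in untreated libraries: higher were Chchd4, Timm10, Gfer, Immp2l, Timm50, Mtx2, Dnajc15 and Pmpcb. Zkscan7, part of which matches Timm17b at that identity, had 47 counts in KO and 142 counts in WT, and Gm5587, the copy of Grpel2, had 14 counts in KO and 3 counts in WT, each summed over 3 libraries. Whether counting used the strand is not stated in these sources, so reads of a gene and of one on the opposite strand cannot be told apart.

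Promoters of 32 of the 36 genes were in the RefSeq table, each 250 bases before to 50 after the start. Searched on both strands, the NRF1 motif was in those of Chchd4, Pam16, Timm8b and Tomm20, 12.5% of the 32 genes, and in 4.6% of all 32851 promoters of that length. CCGGAAGT (ETS) was in those of Mtx2, Pmpcb, Timm10, Timm10b, Timm23 and Tomm70a, 18.8% of the genes and 3.89% of all promoters. Of the 10 genes with either motif, 7 were higher in KO in untreated libraries, 1 (Timm8b) was lower and 2 did not pass. For comparison, 54.3% of the import genes tested were higher, and 29.1% of all nuclear genes tested. Whether the motifs go with the changes was not tested. CACGTG, the core of E-box sites, was in 4 (12.5% and 7.15% of all promoters), of which Timm10 and Tomm20 also hold one of the motifs above. TGATGNAA, bound by ATF4 with a C/EBP partner in genes of the integrated stress response, was in none of the 32 and in 3.97% of all promoters. These matches describe the letters of these windows. Grpel2, Timm21, Tomm7 and Tomm40l had no entry.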

How the data were processed

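Total RNA of 12 mouse heart libraries was sequenced after TruSeq preparation, per the labels' protocols. The submitters' processing notes name HISAT2 2.0.5, SAMtools 1.5, featureCounts 1.5.1, DESeq2 1.16.1 and mm10, without their roles. The deposited tables hold raw counts per gene, untreated and CMC libraries apart, with exon length as another number per gene per the file headers. In a further table, the authors give a normalized mean signal, a log2 fold change, its SE, a test score and p-values; it was used for a side comparison.

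Symbols came from GENCODE M21 by unversioned gene ID (51596 of 51911 features; all 36 import genes, 26 of them with the same version). The 36 mitochondrial features were left out before library sizes, filterByExpr and TMM, since the mitochondrial share (70.5% to 75.4% of counts) itself varied. Counts were tested with the quasi-likelihood test of edgeR 4.0.16 (limma 3.58.1, R 4.3.3), each comparison on its 6 libraries and the difference of effects on all 12, with Benjamini-Hochberg adjustment over all nuclear genes tested; SE is the log2 fold change over the root of F. The biological coefficient of variation was 2.46% in untreated and 5.39% in CMC libraries. Log2 ratios of paired genes had an exact permutation test. The steps were tested on simulated data. Overlaps and copies were found with blastn 2.17.0 and Python 3.11.15 (pandas 2.3.3). Promoters came from RefSeq on GRCm38.p6.

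The members and lists were chosen with earlier results of these data known. Values in every library are given, for each complex, for up to 3 genes called each way with the largest changes in untreated libraries and for all paired genes, for up to 3 other import genes each way, and for Ptcd1. Alternatives were DESeq2 1.42.0, other scalings, no filter on low counts, a minimum fold of 1.2, all libraries in 1 fit, a replicate block and each library left out. A check of shared replicate numbers found correlations of -0.112 to 0.0699, so no block was used. Such low values do not show that libraries of the same number are unrelated.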

Additional observations from a re-analysis of the deposited data

Results flagged for a closer look

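The effect of the knockout differed between CMC and untreated libraries for a pair of import genes, by the contrast of both effects in a fit of all 12 libraries. For Dnajc15 the log2 fold change of KO over WT was larger after CMC by 0.72 (adjusted p = 0.00012, edgeR), and it was past the threshold in all 18 alternatives, with differences of 0.62 to 0.90. For Mtx2 the difference was -0.53 (adjusted p = 0.014), past the threshold in 11 of 17 alternatives, with differences of -0.60 to -0.47. The alternative with DESeq2, which gave Mtx2 no adjusted p and so did not call it, is not among the 17.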

How the results depend on the processing

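Of the 24 import genes called between KO and WT in untreated libraries, 15 were called in every alternative, 9 were lost in some and 0 reversed: Timm13, Pam16, Samm50 and Timm8b with DESeq2's Wald test, and these and Tomm40, Mtx2, Dnajc15, Grpel1 and Pmpcb with a minimum fold of 1.2. Higher and lower in untreated libraries were 17 and 3 with DESeq2 and 12 and 3 with the minimum fold. Leaving out single libraries gave 17 to 19 higher and 4 to 5 lower. After CMC they were 15 and 8, 12 and 6 with DESeq2, 11 and 5 with the minimum fold, and 13 to 16 and 6 to 8 with single libraries left out. An alternative chosen after seeing the data, without genes that overlap another or have a pseudogene copy, left 8 higher and 0 lower in untreated and 7 higher and 2 lower in CMC libraries, fewer because fewer genes remain. For CMC against untreated in KO (3 higher, 6 lower), DESeq2 and the minimum fold each gave 1 and 1, and left-out libraries gave 2 to 3 and 3 to 5. In WT (0 and 0), 1 was lower with all libraries in 1 fit, and 0 to 2 were lower with libraries left out. For the difference of effects (1 and 1), lower was 0 with DESeq2, which gave 5 of 35 genes and not Mtx2 an adjusted p, and with the minimum fold, and left-out libraries gave 1 to 2 higher and 0 to 2 lower. The log2 ratio of Mtx1 to Mtx2, KO minus WT, was -0.46 untreated and 0.14 after CMC, where the groups overlapped (exact p = 0.7). With a replicate block, counts were 19 and 5, 15 and 8, 3 and 6, 0 and 0, and 1 and 1, as without it, so it changed none of these counts. In KO all 3 CMC libraries correlated best with the untreated library of their own number (0.020 to 0.070). In WT none did (-0.024 to -0.0070). The labels give an untreated and a CMC library the same number, so such libraries may share RNA, which these correlations cannot settle. Over all genes, CMC against untreated gave 1451 calls in KO, 574 with DESeq2 and 119 with the minimum fold, and 270 in WT, 80 with DESeq2, 34 with the minimum fold, 436 with all libraries in 1 fit and 749 without WT replicate 3 after CMC; the difference of effects gave 188, 121 with DESeq2, 8 with the minimum fold and 621 without that library. Low counts limit Tomm6 and Timm8a1.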

Other observations

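In the authors' deposited table of KO against WT, 35 of the 36 import genes had an adjusted p and 18 passed 0.05. All 18 were also called here, and 6 were called here only. The sign of the log2 fold change was the same for 34 of 35, and the value found here minus that of the authors' deposited table ran from -0.040 to -0.015.

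By position, 12 of the 36 genes start head to head with a neighbour on the other strand, within 1000 bases. The starts of Chchd4 and Tmem43 lie 157 bases apart, those of Timm8b and Sdhd, a subunit gene of succinate dehydrogenase, 98 bases, and those of Gfer and Noxo1 78 bases.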
